A study of Mus musculus with 4 samples.

Results

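*Gpr17*, *Enpp6*, *Bmp4*, *Bcas1*, *Tns3*, *Itpr2* and *Fyn* are 7 genes used as labels of committed oligodendrocyte precursors and of premyelinating oligodendrocytes, the cells between the oligodendrocyte precursor cell (OPC) and the myelinating oligodendrocyte. They were found by their symbols among the 32285 genes of a spatial transcriptomics experiment, in which all 7 had a row. The experiment profiled 4 sections, 10 µm thick, of fresh frozen brain embedded in OCT from *Nf1*+/- mice, which carry 1 mutated copy of the gene for neurofibromin, a brake on RAS signalling, in every cell. No treatment was named for these sections. The study's methods give a range of ages over all of its mice, from juvenile to adult, and no age for these sections, and the study kept its mice on a C57/BL6 background. All sections share the *Nf1*+/- genotype, no wild-type section was used here, and the labels do not say whether they came from 4 animals, so n counts sections, and the spread between sections may be partly technical. On a Visium slide, mRNA from the several cells lying over a barcoded spot is caught together, and unique molecular identifiers (UMIs) count the captured molecules.

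OPCs divide and persist in the adult brain, and those that leave the cycle pass through a short committed stage before they wrap axons. *Gpr17*, a G protein-coupled receptor, and *Bmp4*, a secreted ligand of the bone morphogenetic protein family, are classical labels of the committed cell. *Enpp6*, a choline phosphodiesterase, and *Bcas1*, a protein of early myelinating processes, label the newly formed oligodendrocyte, and *Tns3*, an adaptor of integrin adhesions, and *Itpr2*, a calcium channel of the endoplasmic reticulum, were added to this set from single-cell work. *Fyn* is a *Src*-family kinase that carries signals from axons to local translation of myelin basic protein in oligodendrocytes, and neurons use it too.

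Sections 1 to 4 held 1537, 2358, 2294 and 1431 spots with at least 500 UMIs, with 19261103 to 37001945 UMIs per section. Section 3 was the shallowest, with a median of 8862.5 UMIs per spot against 12232 to 15296.5 in the others. Within each section the 10% of spots with the greatest excess of 8 OPC markers over the count that their depth predicts, and the 10% of spots with the greatest share of UMIs from 8 myelin genes, were picked, and none of the 7 genes was among these markers. The spots in only the first set, called OPC-marker spots here, numbered 125, 194, 193 and 115, and the spots in only the second, called myelin-rich spots, numbered the same. Between 28 and 41 spots per section were in both sets. Myelin-rich spots were shallow, with medians of 3266 to 7092 UMIs against 9533.5 to 16208 in the remaining spots. Levels by spot group are therefore given both in CPM (UMIs per 1000000 UMIs of the spots summed) and in UMIs per 100 spots. Spots share barcodes between sections by the design of the slide (427 to 1989 per pair of sections), which does not mean shared cells. In such sums, fewer cells of a type and less RNA per cell cannot be told apart.

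Over whole sections the 7 genes differed in how steady they were. *Itpr2* was the steadiest, at 7.80, 7.41, 7.77 and 7.11 CPM in sections 1 to 4. *Fyn* stood at 61.5, 64.3, 66.8 and 70.6 CPM. *Tns3* stood at 38.4, 31.3, 36.8 and 30.8 CPM, and sections 1 and 3 were the higher ones. *Gpr17* was counted at 15.8, 14.8, 16.1 and 21.3 CPM from 370, 549, 354 and 411 UMIs, with section 4 above the other three. *Enpp6* varied most, at 6.35, 3.49, 6.41 and 7.68 CPM, a ratio of 2.20 between section 4 and section 2. *Bcas1* was also lowest in section 2, at 68.7, 50.1, 84.5 and 75.7 CPM. *Bmp4* was scarce, with 47, 60, 30 and 29 UMIs, or 2.00, 1.62, 1.36 and 1.51 CPM. These levels are not compared between genes, because how well the transcripts of each gene are captured was not measured.

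A UMI of *Bcas1* was found in 52.9% ± 4.02 (SD, n = 4 sections) of spots and one of *Fyn* in 52.8% ± 6.78. The share was 34.9% ± 6.14 for *Tns3*, 16.7% ± 3.86 for *Gpr17* and 9.33% ± 1.82 for *Itpr2*. *Enpp6* was detected in 6.70% ± 1.85 and *Bmp4* in 1.97% ± 0.549 of spots. Each share rests on the depth of a spot. Over only the spots with at least 5000 UMIs, the mean shares were 53.4% for *Bcas1*, 56.6% for *Fyn* and 36.8% for *Tns3*. They were 17.6% for *Gpr17*, 9.90% for *Itpr2*, 6.32% for *Enpp6* and 2.04% for *Bmp4*. After these spots were thinned to 5000 UMIs, the shares fell to 27.7% for *Bcas1*, 27.2% for *Fyn* and 16.2% for *Tns3*. They fell to 7.43% for *Gpr17*, 3.81% for *Itpr2*, 2.92% for *Enpp6* and 0.780% for *Bmp4*.

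*Gpr17* was the member that stood out in OPC-marker spots. Its level there was 37.9, 31.9, 47.9 and 45.7 CPM in sections 1 to 4, from 72, 94, 89 and 76 UMIs, against 12.3, 12.4, 12.4 and 18.2 CPM in the remaining spots. All 4 OPC-marker sums lay above all 4 remaining sums, and how many of all genes separate in this way was not counted. The difference was 1.56 ± 0.12 (log2 fold change ± SE, edgeR quasi-likelihood test with section as a block, adjusted p = 4.08e-07, higher in 4 of 4 sections), a 2.96-fold higher level. Median depth in sections 1 to 4 was 15282, 14100, 8676 and 13105 UMIs per OPC-marker spot. It was 15501, 16208, 9533.5 and 13208 UMIs per remaining spot, higher in each section. Per 100 spots the means were 54.6 ± 9.14 UMIs of *Gpr17* in OPC-marker and 20.1 ± 5.60 in remaining spots (SD, n = 4). A UMI of *Gpr17* was found in a mean of 32.1% of OPC-marker and 15.5% of remaining spots. The most UMIs of *Gpr17* in 1 spot of section 3 was 20, and the group of that spot was not looked up.

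The other tested members were called neither higher nor lower in OPC-marker spots. *Gpr17* was thus 1 of 6 tested members called higher, where 0.385% of the 11436 tested genes other than the 16 score markers were called higher and 0.28% lower. *Bcas1* had a log2 fold change of 0.28 with a 95% interval from 0.04 to 0.51, which did not pass after adjustment (edgeR, adjusted p = 0.38). *Enpp6* had 0.49 with an interval from -0.08 to 1.06 (edgeR, adjusted p = 0.595), on only 10, 14, 10 and 10 UMIs in the OPC-marker spots. The intervals ran from 0.00 to 0.79 for *Itpr2*, from -0.03 to 0.46 for *Tns3* and from -0.05 to 0.34 for *Fyn*, so that for *Tns3* and *Fyn* a difference as large as that of *Gpr17* lay well outside them. The median log2 fold change of the 6 was 0.34, against 0.01 over all these genes. When the spots of both sets were added to the OPC-marker spots, *Enpp6* (log2 fold change 1.22), *Bcas1* (0.64) and *Tns3* (0.43) were called as well, with edgeR adjusted p of 0.00703, 0.00257 and 0.0493. In that setting 149 genes were called higher and 106 lower. The added spots belong to the myelin set by definition and held *Enpp6* at 51.9, *Bcas1* at 350 and *Tns3* at 113 CPM. These calls therefore do not describe spots of the OPC set alone.

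**Figure D1:**
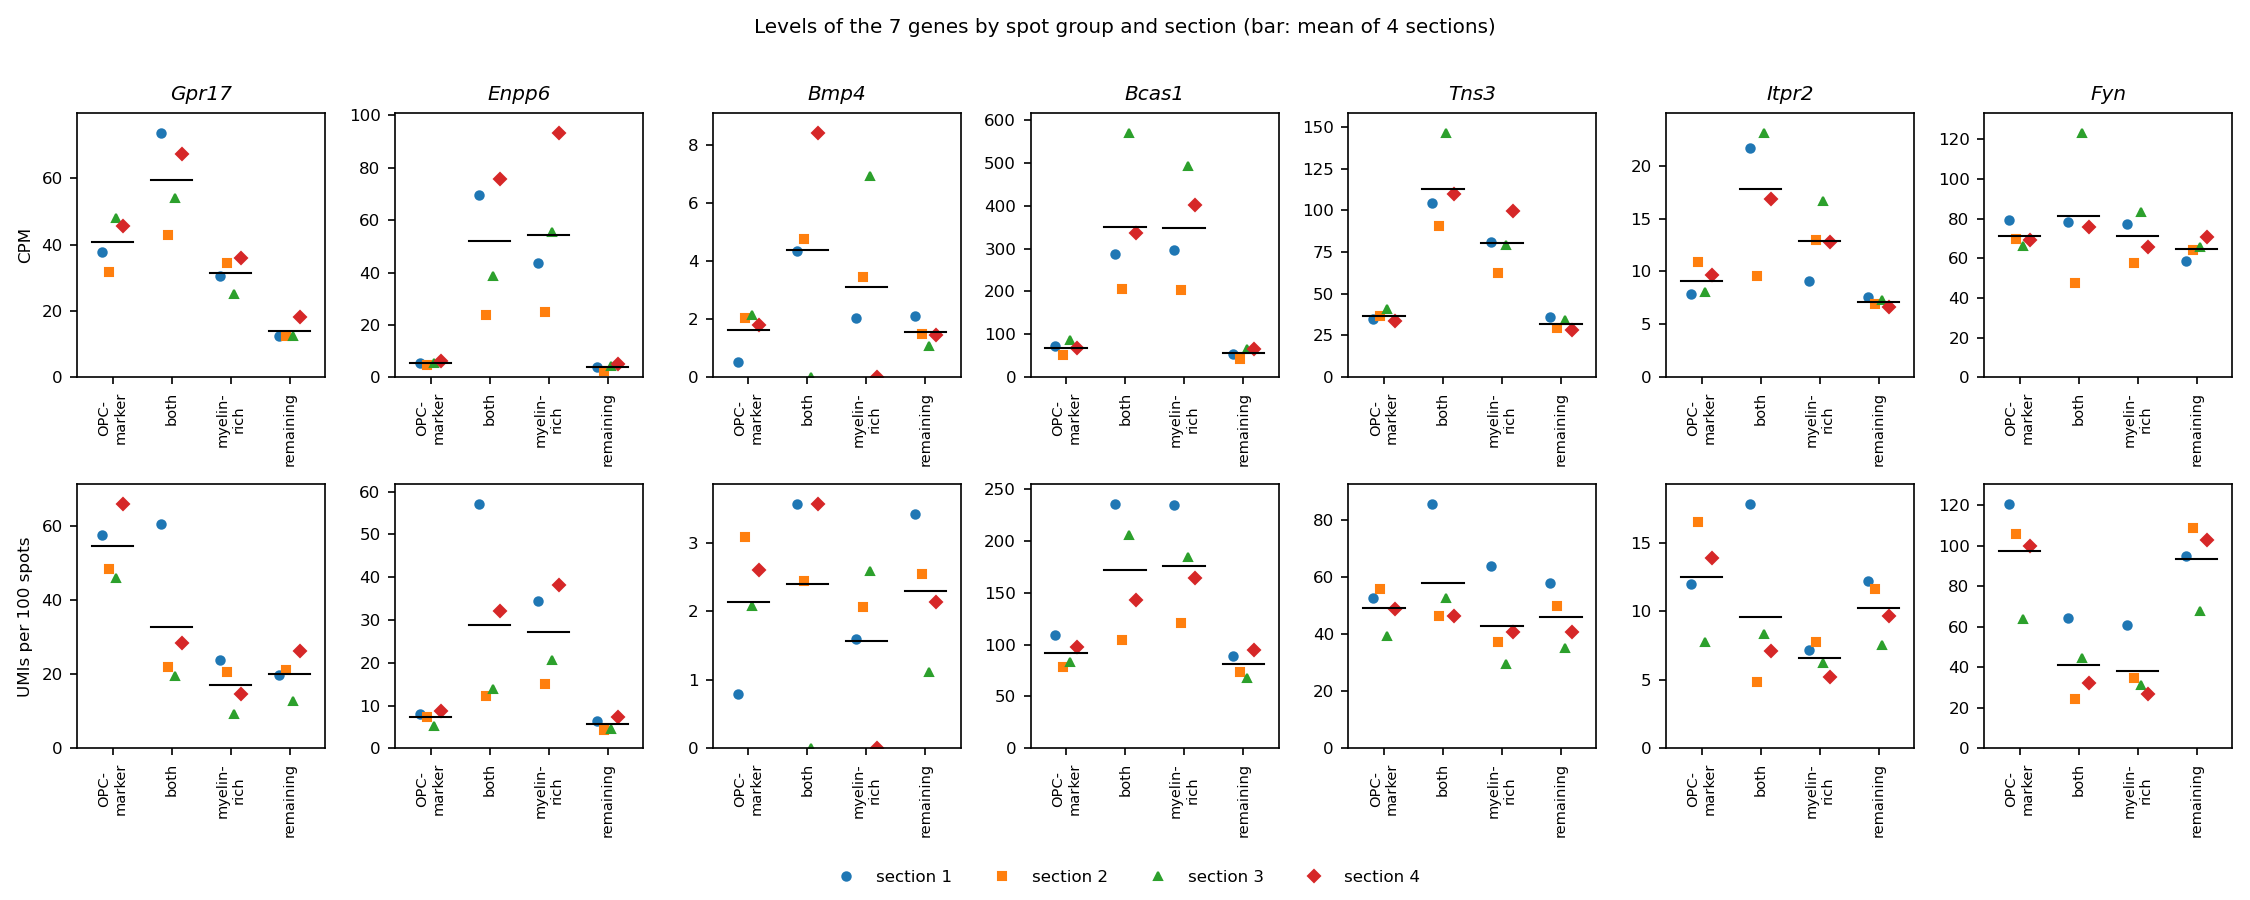
Level of each of the 7 genes in the OPC-marker spots, the spots in both sets, the myelin-rich spots and the remaining spots, in CPM (top) and in UMIs per 100 spots (bottom), on linear axes from 0, with 1 symbol per section and a bar at the mean of 4 sections. *Gpr17* stands higher in OPC-marker than in remaining spots on both scales, whereas *Enpp6* and *Bcas1* stand highest in myelin-rich spots and in the spots of both sets.

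In myelin-rich spots, 5 of the 6 tested members were called higher than in the remaining spots, against 17.2% of tested genes called higher and 14.7% lower, and their median log2 fold change was 1.36 against -0.01 over all genes. *Enpp6* showed the greatest difference of the 6. It stood at 43.6, 25.03, 55.6 and 93.5 CPM in myelin-rich spots, from 43, 29, 40 and 44 UMIs, and at 3.93, 2.48, 4.45 and 4.997 CPM in the remaining spots. Section 4 was the highest and section 2 the lowest in both groups. Myelin-rich spots were picked within each section, and those of section 2 held the smallest share of myelin UMIs. That share was 1.44% in section 2 and 2.06% to 2.94% in the other sections, and its part in the section difference was not tested. The groups lay far apart, and how many of all genes do so was not counted. The log2 fold change was 3.78 ± 0.20 (SE, edgeR, adjusted p = 1.01e-10), a 13.7-fold difference. *Enpp6* was also higher per spot, at 27.1 ± 11.0 UMIs per 100 myelin-rich spots against 5.60 ± 1.44 per 100 remaining spots (SD, n = 4).

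*Bcas1* followed, at 297, 203, 493 and 401.5 CPM in myelin-rich spots against 54.8, 43.5, 65.8 and 65.7 CPM in the remaining spots. Its log2 fold change was 2.65 ± 0.10 (SE, edgeR, adjusted p = 2.51e-12), a 6.28-fold difference with no overlap between the groups. The share of all genes without overlap was not counted. *Bcas1* was higher per 100 spots as well, at 176 ± 47.0 against 81.4 ± 12.7 UMIs (SD, n = 4).

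*Tns3*, *Gpr17* and *Itpr2* were higher per UMI but not per spot. *Tns3* stood at 81.2, 62.1, 79.2 and 99.8 CPM in myelin-rich spots against 35.9, 29.4, 34.1 and 28.1 CPM, with a log2 fold change of 1.38 ± 0.13 (SE, edgeR, adjusted p = 2.76e-07). *Gpr17* stood at 30.4, 34.5, 25.001 and 36.1 CPM, from 30, 40, 18 and 17 UMIs, and was higher than in the remaining spots by 1.34 ± 0.18 (edgeR, adjusted p = 1.58e-05). Neither set of 4 values overlapped with the remaining spots, and the share of all genes without overlap was not counted. *Itpr2*, at 9.13, 12.9, 16.7 and 12.7 CPM from 9, 15, 12 and 6 UMIs, was higher by 0.92 ± 0.25 (edgeR, adjusted p = 0.00871), and the call was lost without section 3 (0.78, adjusted p = 0.0780), with OPC-marker spots picked by *Pdgfra* alone (0.73, adjusted p = 0.0605) and with spots of at least 5000 UMIs (0.50, adjusted p = 0.116). Per 100 spots, *Tns3* had 42.9 ± 14.8 UMIs in myelin-rich and 45.9 ± 10.1 in remaining spots, *Gpr17* had 17.2 ± 6.47 and 20.1 ± 5.60, and *Itpr2* had 6.59 ± 1.11 and 10.3 ± 2.14 (SD, n = 4).

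*Fyn* was not called in myelin-rich spots. It stood at 77.1, 57.8, 83.3 and 65.8 CPM there and at 58.9, 64.2, 65.8 and 70.8 CPM in the remaining spots, so that the groups overlapped and sections 1 and 3 were higher in myelin-rich spots while sections 2 and 4 were lower. The 95% interval of the log2 fold change ran from -0.03 to 0.48 (edgeR, adjusted p = 0.175).

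Scaling to the number of spots in place of their UMIs moved the median log2 fold change of all genes in this contrast to -1.53, since myelin-rich spots held fewer UMIs. On that scale *Enpp6* (2.22) and *Bcas1* (1.09) were still called higher, *Itpr2* (-0.60) and *Fyn* (-1.303) were called lower, and *Tns3* (-0.13, adjusted p = 0.409) and *Gpr17* (-0.20, adjusted p = 0.309) were not called by edgeR. On it 10793 of the 11436 tested genes other than the score markers were called lower and 202 higher. Relative to the shifted median, all 6 stood higher.

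Markers of other cells moved with the myelin-rich spots. All 6 microglia markers were called higher there, with a summed level of 475 to 657 CPM against 311 to 349 CPM in the remaining spots, as were all 6 ependyma markers (74.2 to 166 against 42.3 to 88.7 CPM) and 5 of 8 astrocyte markers, and 7 of 8 neuron markers were called lower (2328 to 5155 against 5700 to 8394 CPM). None of these markers was at 0 in all sections of any group. Of the tested markers of choroid plexus, endothelium, mural cells and fibroblasts, 2 of 6, 2 of 7, 1 of 4 and 0 of 4 were called higher by edgeR (3, 2, 1 and 0 at an unadjusted p under 0.05, and 1, 2, 1 and 0 by DESeq2). Their part in the members' differences was not tested. In OPC-marker spots, none of the 6 microglia, 6 ependyma, 8 astrocyte, 7 endothelial, 4 mural, 4 fibroblast and 6 choroid plexus markers tested was called by edgeR or DESeq2. At an unadjusted edgeR p under 0.05, however, all 4 fibroblast markers (median log2 fold change 0.72), 3 of 4 mural markers (median 0.56), 3 astrocyte, 2 microglia and 1 ependyma marker were higher there. Of the 8 neuron markers, 2 were higher and 4 lower at that threshold. The summed level ran from 18.6 to 67.1 CPM for the fibroblast list and from 98.6 to 229 CPM for the mural list, against 20.05 to 35.7 and 110 to 157 CPM in the remaining spots, and their part in the difference of *Gpr17* was not tested. Of the neuron markers 1, *Gad2*, was called higher (log2 fold change 0.33, edgeR, adjusted p = 0.0488).

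Between OPC-marker and myelin-rich spots, 3 of the 6 tested members were called, all lower in OPC-marker spots, against 12.2% of tested genes called lower and 9.49% higher. *Enpp6* was lower in OPC-marker spots by 3.29 ± 0.25 on the log2 scale (edgeR, adjusted p = 2.57e-08), *Bcas1* by 2.37 ± 0.12 (edgeR, adjusted p = 1.30e-10) and *Tns3* by 1.16 ± 0.15 (edgeR, adjusted p = 1.89e-05). The ranges of *Enpp6* were 4.75 to 6.01 CPM in OPC-marker and 25.03 to 93.5 CPM in myelin-rich spots. *Gpr17* did not pass, with a log2 fold change of 0.23 and a 95% interval from -0.14 to 0.59 (edgeR, adjusted p = 0.402), and its groups overlapped at 31.9 to 47.9 against 25.001 to 36.1 CPM. *Itpr2* (-1.11 to 0.06) and *Fyn* (-0.36 to 0.20) also had intervals that included 0. Scaled to the number of spots, *Gpr17* was called higher in OPC-marker spots (log2 fold change 1.67, edgeR, adjusted p = 9.32e-11). On that scale 10642 genes were called higher and 168 lower, and the median of all genes was 1.44, since myelin-rich spots held fewer UMIs.

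*Bmp4* was too scarce for these tests. Its 166 UMIs fell on 14 in OPC-marker spots, 11 in myelin-rich spots, 138 in the remaining spots and 3 in the spots of both sets. In the OPC-marker spots of sections 1 to 4 it had 1, 6, 4 and 3 UMIs, and in the myelin-rich spots 2, 4, 5 and 0. The 0 of section 4 allows up to 6.37 CPM (3 counts, counting error only), which is above the 1.47 CPM of the remaining spots there, so that a difference was not detectable at this depth. Tested with no filter on low counts, *Bmp4* had log2 fold changes of 0.08 in OPC-marker spots and 1.05 in myelin-rich spots, neither called by edgeR (adjusted p = 0.97 and 0.205).

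**Figure D2:**
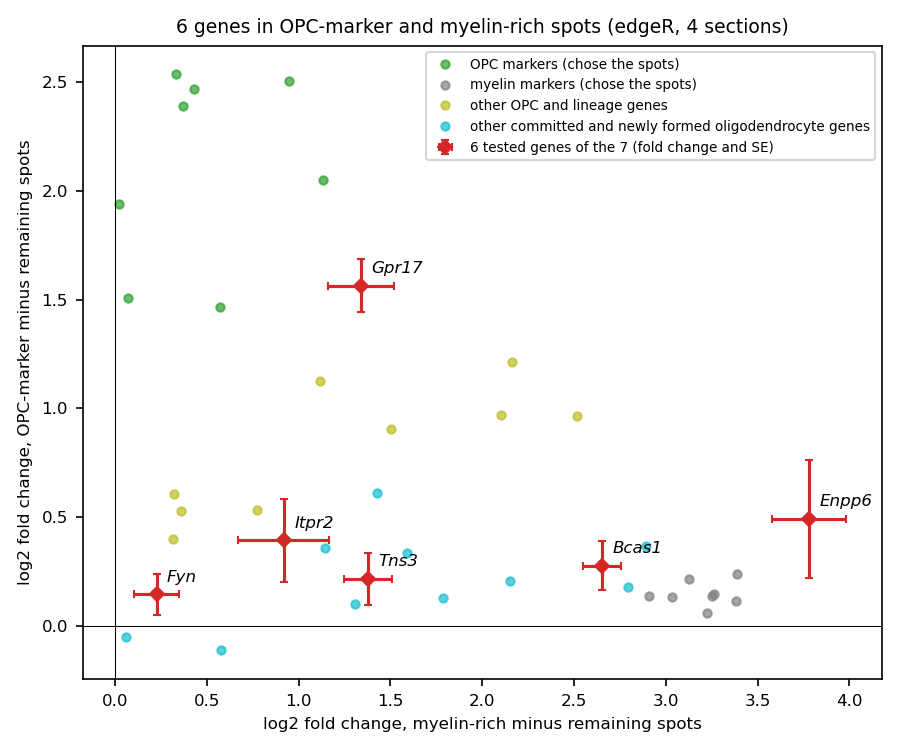
Log2 fold change in myelin-rich spots (x axis) and in OPC-marker spots (y axis), each against the remaining spots, for the 6 tested genes (diamonds with SE, edgeR, 4 sections), for the markers that picked the spots and for other genes of the lineage (dots). *Gpr17* lies high on both axes at 1.34 and 1.56, *Enpp6* and *Bcas1* lie to the right at 3.78 and 2.65, and *Fyn* lies near 0 on both.

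The spots that belonged to both sets gave the highest mean CPM among the 4 kinds of spot for *Gpr17*, *Tns3*, *Itpr2*, *Fyn* (81.3 ± 31.3 CPM, SD, n = 4) and *Bmp4* (4.39 ± 3.45 CPM from 3 UMIs). In UMIs per 100 spots, only *Tns3* (57.8) and *Bmp4* (2.40) of these were highest there. *Gpr17* had 32.7 against 54.6 in OPC-marker spots, *Itpr2* 9.55 against 12.5 and *Fyn* 41.3 against 97.6. How many of all genes peak in these spots was not counted. *Gpr17* stood there at 73.8, 43.0, 54.0 and 67.4 CPM, from 17, 9, 7 and 8 UMIs, and *Tns3* at 104, 90.7, 147 and 110 CPM. *Bcas1* (mean 350 ± 157 CPM, SD, n = 4) and *Enpp6* (51.9 ± 24.8 CPM) differed there from their myelin-rich levels of 349 ± 126 and 54.4 ± 28.9 CPM by less than the spread between sections. These few spots were described and not tested.

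Other genes of the lineage, listed for comparison, fell into the same range of patterns. Of 9 OPC and lineage genes that were not used to pick spots, 6 were called higher in OPC-marker spots and 7 in myelin-rich spots, and none was called lower in either. The transcription factors *Olig2* (1.21 and 2.16), *Olig1* (0.97 and 2.10) and *Sox10* (0.96 and 2.52) and the matrix proteoglycan *Vcan* (1.13 and 1.12) had log2 fold changes called in both. Of 13 other committed and newly formed oligodendrocyte genes in the files 10 could be tested, and 0 were called in OPC-marker spots by edgeR or DESeq2 (2 at an unadjusted edgeR p under 0.05) whereas 8 were called higher in myelin-rich spots, among them *Myrf* (2.89), the transcription factor that drives myelin genes, and *Gpr37* (2.79), a receptor of maturing oligodendrocytes. All 12 myelin and mature oligodendrocyte genes that were not used to pick spots were called higher in myelin-rich spots. *Gpr17* lay above *Vcan* in both contrasts, at 1.56 and 1.34. In myelin-rich spots *Bcas1* (2.65) lay close to *Gpr37* and *Myrf*.

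Genes that act with *Bmp4* and *Fyn* were counted from 2 further lists. Of 16 genes of the BMP pathway 14 were tested. None was called in OPC-marker spots by edgeR or DESeq2, and 1 had an unadjusted edgeR p under 0.05. In myelin-rich spots 6 were called higher, namely the target genes *Id1* (0.90), *Id3* (1.54) and *Id4* (0.57), the signal carriers *Smad1* (0.66) and *Smad5* (0.74) and the inhibitor *Smad7* (1.76), and 2 were called lower, the extracellular antagonists *Nog* (-0.97) and *Chrd* (-0.998), where 17.2% of all genes were called higher and 14.7% lower. The receptors *Bmpr1a*, *Bmpr1b*, *Bmpr2* and *Acvr1* and the target gene *Id2* were not called. At an unadjusted edgeR p under 0.05, 7 of the 14 were higher and 4 lower in myelin-rich spots, and DESeq2 called 6 and 3. Of 10 genes of the *Fyn* and *Src*-family list, none was called in OPC-marker spots by edgeR or DESeq2 (1 at an unadjusted edgeR p under 0.05), and in myelin-rich spots *Itgb1* (0.72), *Mapt* (0.36) and *Ptpra* (0.23) were called higher and *Cntn1* (-0.27) lower, against the same shares of all genes. *Fyn* and its relatives *Src*, *Yes1* and *Lyn* were not called in any of these contrasts.

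Along the share of myelin UMIs the 7 genes took different courses. *Enpp6* stayed between 2.02 and 3.84 CPM over the first 7 deciles of spots and then rose to 7.24 ± 4.15, 14.4 ± 6.00 and 53.9 ± 27.0 CPM in the last 3 (SD, n = 4), so that 33.4% ± 5.66 of its UMIs lay in the last decile. *Bcas1* climbed in every step from 24.1 ± 3.21 to 347 ± 130 CPM. *Gpr17* lay between 14.0 and 18.4 CPM over the first 8 deciles and reached 24.9 ± 6.14 and 36.4 ± 5.47 CPM in the last 2, while its UMIs per 100 spots stayed between 19.92 and 25.3 throughout. *Tns3* went from 27.1 ± 1.74 to 86.0 ± 14.3 CPM and *Itpr2* from 6.43 ± 1.40 to 13.7 ± 2.76 CPM. *Fyn* stayed between 61.2 and 73.01 CPM, and its UMIs per 100 spots fell from 110 to 39.1 with the depth of the spots. *Bmp4* was at 0.945 to 2.39 CPM in the first 9 deciles and at 3.41 ± 1.83 CPM in the last.

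**Figure D3:**
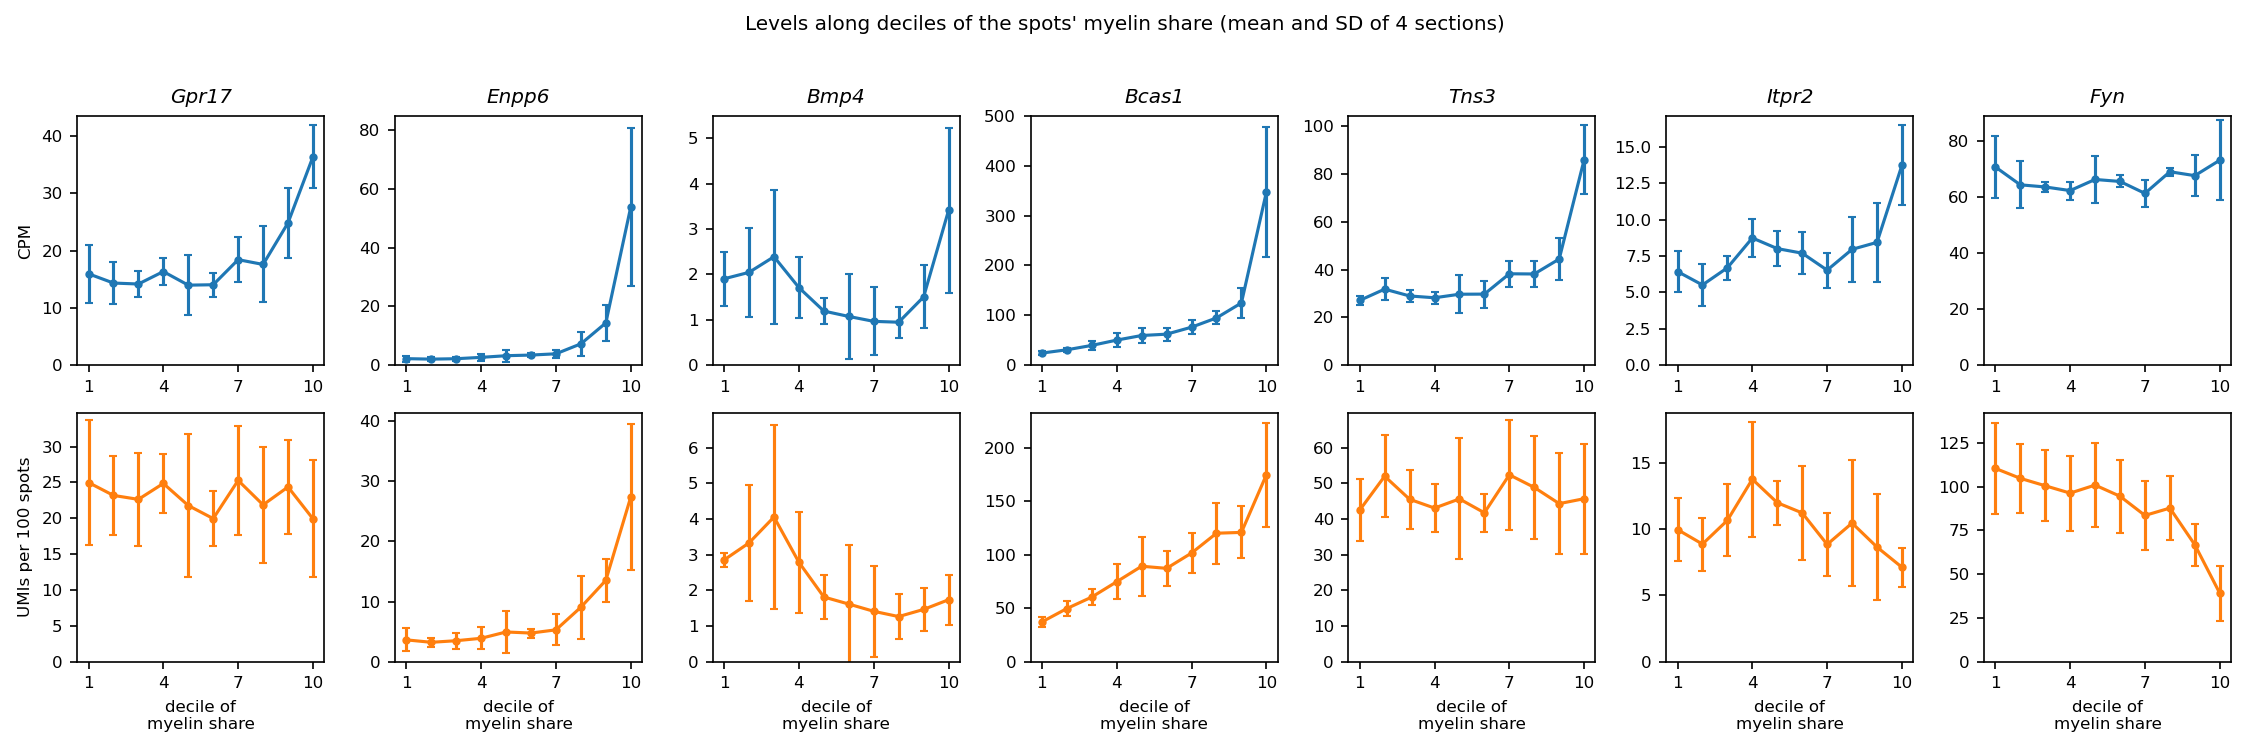
Level of each gene along deciles of the spots ordered by myelin share (1 lowest, 10 highest) in CPM (top) and UMIs per 100 spots (bottom), as mean and SD of 4 sections on linear axes from 0. *Enpp6* and *Bcas1* climb on both scales, *Gpr17*, *Tns3* and *Itpr2* climb in CPM alone, and *Fyn* stays between 61.2 and 73.01 in CPM and falls per 100 spots.

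Weighting each spot's rank by the UMIs of a gene gave the gene a mean position from 0 to 100 on each scale. On the myelin scale, where all UMIs together stood at 44.0 ± 1.18 (SD, n = 4), *Enpp6* stood at 69.9 ± 4.34, and *Bcas1* at 61.6 ± 2.79. *Tns3* (49.9 ± 3.06), *Gpr17* (49.1 ± 3.07) and *Itpr2* (47.6 ± 2.61) followed, and these neighbours differed by less than their SDs. *Fyn* (44.2 ± 2.59) and *Bmp4* (41.3 ± 5.93) lay about the position of all UMIs. On the OPC scale *Gpr17* stood at 60.3 ± 2.20, between all UMIs at 47.7 ± 0.186 and *Pdgfra*, a score marker and the receptor that marks OPCs, at 76.4 ± 4.24, and the other members lay between 48.0 and 54.8. The level of *Gpr17* along deciles of the OPC score went from 8.58 ± 2.66 in the first to 42.4 ± 7.24 CPM in the last. Per 100 spots it lay between 14.7 and 18.4 UMIs in deciles 1 to 5 and reached 50.5 ± 8.98 in the last.

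The 7 genes were found together in spots about as often as their separate rates and the depth of each spot predict. Over the 21 pairs, the median log2 ratio of observed to expected spots was -0.01 ± 0.03 (SD, n = 4 sections). *Gpr17* and *Enpp6* were detected together in 25, 26, 17 and 34 spots of sections 1 to 4, where 25.5, 24.96, 16.6 and 31.9 were expected. *Gpr17* and *Tns3* shared 508 spots where 512 were expected. The only pair above its expected number in all 4 sections was *Enpp6* and *Bcas1*, with 315 spots against 296. *Gpr17* and *Bcas1* lay below it in all 4, with 158, 207, 134 and 171 spots against 172, 238, 145 and 191, and so did *Enpp6* and *Fyn* (254 against 296), *Bcas1* and *Tns3* (1462 against 1557) and *Bcas1* and *Fyn* (2170 against 2318). A two-sided exact sign-flip permutation test over 4 sections cannot go below 0.13, which is the p of each of these 5 pairs, before any adjustment over 21 pairs.

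Taking the expected number within deciles of the myelin share changed these pairs. *Enpp6* and *Bcas1* then had 315 spots against 325 and lay below the expected number in all 4 sections, *Enpp6* and *Fyn* had 254 against 251, and *Bcas1* and *Fyn* had 2170 against 2180. *Gpr17* and *Bcas1* were still below in all 4 sections, at 670 against 714. Above the expected number in all 4 sections were now *Gpr17* and *Fyn*, with 778 spots against 735, and *Tns3* and *Fyn*, with 1562 against 1530. Pairs with *Bmp4* rested on 17 to 92 shared spots, and all of them but that with *Bcas1* spread most between sections. *Bmp4* shared 17 spots with *Enpp6* against 9.94 expected, 23 with *Itpr2* against 17.1 and 36 with *Gpr17* against 29.5. Each of these lay above the expected number in 3 of 4 sections. With *Bcas1* it shared 82 against 80.6, with *Tns3* 59 against 60.0 and with *Fyn* 92 against 91.0.

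**Figure D4:**
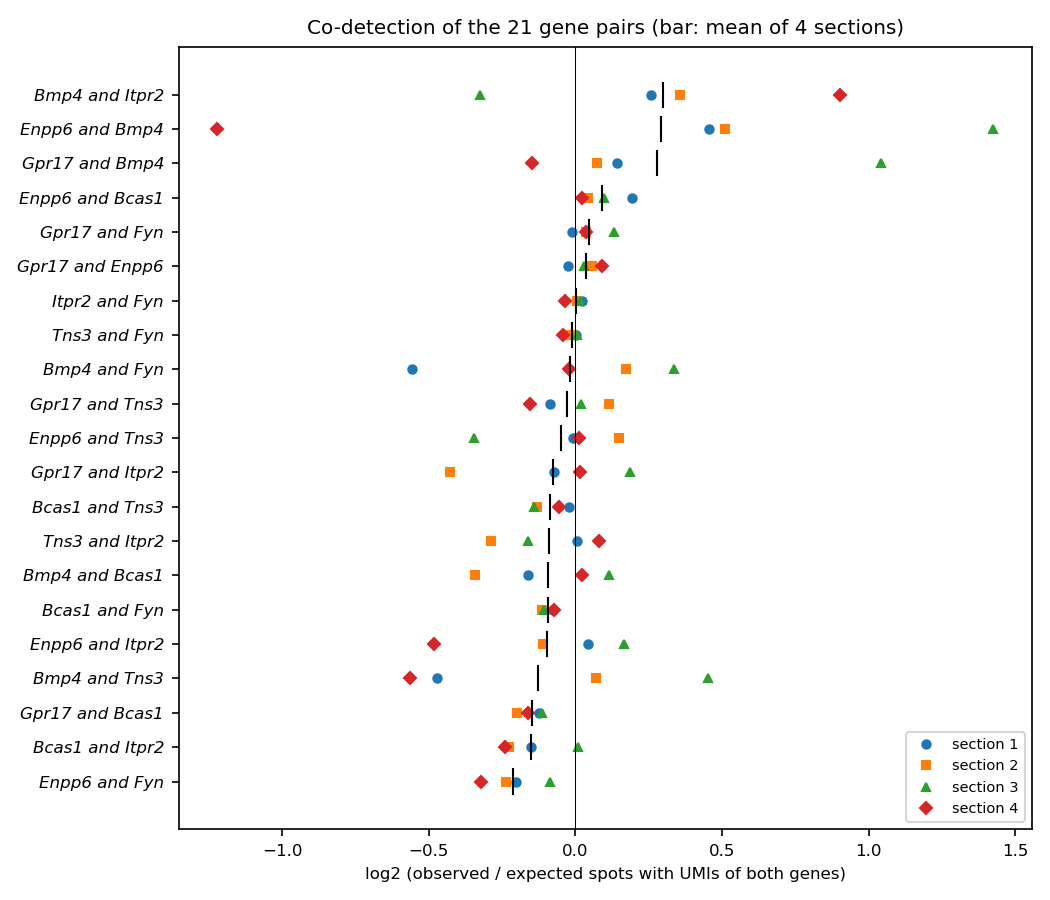
Log2 ratio of observed to expected spots holding UMIs of both genes, for the 21 pairs (rows) with 1 symbol per section and a bar at the mean. Most pairs lie close to 0. Those with *Bmp4*, apart from *Bmp4* and *Bcas1*, scatter most, and *Enpp6* and *Bcas1* is the one pair with all 4 sections above 0.

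Clusters of spots made without the 7 genes and without the OPC and myelin markers gave 10 regions, ordered by their myelin share. The region led by myelin genes, among them *Opalin* and *Mog* (313 spots), was the shallowest, with a median of 4052 UMIs per spot against 6050 to 16849. All members but *Bmp4* had their highest regional mean there. *Bcas1* was at 464 ± 78.8, *Tns3* at 122 ± 12.5, *Fyn* at 93.7 ± 18.9 and *Enpp6* at 81.0 ± 26.4 CPM (SD, n = 4). *Gpr17* was at 51.1 ± 12.7 CPM from 72 UMIs and *Itpr2* at 18.9 ± 3.46 CPM from 26 UMIs. How many of all genes peak in that region was not counted, so these peaks in CPM are not read as a trait of the members. *Tns3* was also at 90.0 ± 29.7 CPM in the region led by *Ttr*, a gene of the choroid plexus (SD, n = 3 sections with at least 20 spots), and at 59.8 and 101 CPM in the region led by *Acta2*, *Mgp* and *Dcn*, genes of vessel walls and fibroblasts, in the 2 sections with at least 20 such spots. *Bmp4* was highest in this last region. With the sections of fewer spots included it had 6, 12, 1 and 0 UMIs there in 15, 57, 29 and 7 spots, or 19 UMIs in all of its 166. *Itpr2* stood at 14.2 and 15.1 CPM in it, and at 7.15 ± 6.39 CPM in the region led by *Ttr* (SD, n = 3, from 10 UMIs). These regional levels were described and not tested.

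Over the 37 sums of section and region, the genes whose levels ran most like each member differed. This likeness is Pearson's r of log2(CPM + 1) centred on each section, over sums that share tissue and depth, and it is a description. *Enpp6* ran most like *Ermn* (r = 0.964), *Mal* (0.963) and *Mag* (0.958), and *Bcas1* like *Mbp* (0.985) and *Mog* (0.981), all genes of myelin. *Gpr17* ran most like *Smox* (0.914), *Lrrn1* (0.857) and *Scrg1* (0.856). *Itpr2* ran most like *Fcer1g* (0.891) and *Trem2* (0.868), genes of microglia. *Tns3* ran most like *Arpc1b* (0.944), *Tpt1* (0.933) and *Mt1* (0.928), *Fyn* like *Pcnp* (0.820), *Dpysl2* (0.813) and *Aatk* (0.783), and *Bmp4* like *Grn* (0.793), *Slc39a1* (0.754) and *Olfml3* (0.742). Among the members themselves, r was 0.92 for *Enpp6* and *Bcas1*, 0.615 for *Gpr17* and *Enpp6* and 0.161 for *Tns3* and *Fyn*.

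The genes of the set thus differed in the kind of spot where they stood higher in these sections. Whether they mark committed or premyelinating cells was not tested, because spots were picked by OPC and myelin markers and hold several cells. *Enpp6* and *Bcas1* were higher in myelin-rich spots both per UMI and per spot. *Gpr17* was higher in OPC-marker spots on both scales and in myelin-rich spots per UMI alone. *Tns3* and *Itpr2* were higher in myelin-rich spots per UMI alone, and the call of *Itpr2* was lost under 3 alternatives. *Fyn* was not called per UMI, and *Bmp4* could not be placed. Scaled to the number of spots, *Itpr2* and *Fyn* were called lower in myelin-rich spots, but so were 10793 genes. Both lay above the median log2 fold change of all genes on that scale, -1.53.

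Promoter sequence was at hand in RefSeq (GRCm38.p6) for 5 of the 7 genes. It is shown for *Enpp6* and *Itpr2*, which had the greatest and the least of the called differences in myelin-rich spots, as bases upstream of the transcript start, 5′ to 3′ on the gene's strand, with CG pairs in capitals. The window of *Enpp6* (chr8:46986637-46986886, plus strand) lies inside the annotated span of the gene (chr8:46939197-47096762), 47440 bases after its first base, since RefSeq holds more than 1 start. The stretch of *Itpr2* (chr6:146502259-146502473, minus strand) lies outside the annotated gene (chr6:146108299-146502258). It holds 215 bases and 19 CG pairs, and ends 35 bases short of the transcript start, because those 35 bases lie inside the annotated gene and are not printed.
*Enpp6*: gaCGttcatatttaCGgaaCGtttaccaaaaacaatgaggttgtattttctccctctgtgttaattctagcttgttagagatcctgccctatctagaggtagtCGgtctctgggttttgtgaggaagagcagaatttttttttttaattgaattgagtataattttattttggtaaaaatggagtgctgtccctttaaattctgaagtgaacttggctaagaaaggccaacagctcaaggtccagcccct
*Itpr2*: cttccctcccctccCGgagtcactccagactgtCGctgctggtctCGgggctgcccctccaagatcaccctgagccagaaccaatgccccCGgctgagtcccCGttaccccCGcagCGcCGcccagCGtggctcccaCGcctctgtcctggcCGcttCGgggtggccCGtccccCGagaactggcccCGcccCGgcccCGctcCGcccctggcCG
The whole 250 bases before the start held 4 CG pairs for *Enpp6*, against 24 for *Tns3*, 22 for *Itpr2*, 21 for *Fyn* and 11 for *Bmp4*, where the median of 32851 promoters was 6 (quartiles 2 and 16). ACAAAG is a form of the core motif of SOX factors, and other forms were not counted. None of the 5 windows held it, or the E-boxes CAGCTG or CATCTG, on either strand. These motifs were found in 16.5%, 13.0% and 14.4% of all promoters of this length. The absence of these letters from 250 bases says nothing about the factors.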

How the data were processed

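UMIs were measured in 4 Visium sections of *Nf1*+/- mouse brain. The authors aligned the reads with Space Ranger 1.3.1 (mm10 in the submitters' notes) and deposited the UMI count of each gene in each spot, not normalized, with the lists of genes and spots. Section numbers only name the sections, in the order of their accessions.

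Spots under 500 UMIs were left out. Spots were scored for OPCs by their UMIs of *Pcdh15*, *Neu4*, *Matn4*, *Lhfpl3*, *Cacng4*, *C1ql1*, *Cspg4* and *Pdgfra* less the number expected at their depth, over the root of that number. The myelin share of a spot was the part of its UMIs from *Mbp*, *Mobp*, *Mag*, *Mog*, *Mal*, *Cldn11*, *Cnp* and 1 gene that, like some values, is not reported here. For each section, the UMIs of each spot group were added up, and these sums were fitted in R 4.3.3 with edgeR 4.0.16 (TMM, filterByExpr, quasi-likelihood test, section as block, Benjamini-Hochberg adjustment over 11452 genes, threshold 0.05). The SE is the log2 fold change over the root of F, and 95% intervals use the test's t distribution. The block was used because the groups of a section share tissue: sums of 1 section departed from their group means together (r 0.09 to 0.632), unlike sums of different sections (r -0.335 to 0.07). The fit was tested on simulated data. Spots of both sets were left out of it.

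Expected co-detection took each gene's rate per UMI and each spot's depth, scaled to the gene's observed number of spots. Regions are k-means clusters of 20 components of 1000 variable genes (scikit-learn 1.9.0). Named genes were the members, the genes of the lists, and the 3 genes most like each member (2 are given for *Bcas1* and *Itpr2*). The members and lists were chosen with earlier results of these data known. Alternatives were other shares of spots, markers, depths, scalings, filters and DESeq2 1.42.0, no block, matched spots and each section left out, and scaling to spots and the OPC score without *Neu4* were added after the data were seen. Spot positions and the regions drawn in the study were not used here. Counts cover UMIs and intervals on them cover counting error only.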

Additional observations from a re-analysis of the deposited data

Results flagged for a closer look

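Of 56 values checked across the 4 sections (levels, log2 ratios, positions and co-detection), 1 had a section far from the other three, where chance, at about 1 in 20, gives 2.8. The log2 ratio of *Tns3* in OPC-marker against remaining spots was -0.039 in section 1 and 0.27 to 0.32 in sections 2 to 4. Without section 1 the log2 fold change of *Tns3* was 0.30, still not called by edgeR (adjusted p = 0.587).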

How the results depend on the processing

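*Gpr17* was called in OPC-marker spots under all 19 alternatives (log2 fold change 0.98 to 1.63), and *Enpp6* and *Bcas1* in myelin-rich spots under all 18 (2.22 to 4.11 and 1.09 to 3.17). With the spots of both sets as OPC-marker spots, 4 members were called there in place of 1, and between OPC-marker and myelin-rich spots 5 in place of 3 passed when the top 5% of spots were used, all lower in OPC-marker spots. With scaling to spots 5 passed there too, but *Gpr17* (1.67), *Fyn* and *Itpr2* as higher and *Enpp6* (-1.82) and *Bcas1* (-0.92) as lower. Signs turned mainly with scaling to spots, for myelin-rich against remaining spots in *Itpr2* (-0.60), *Fyn* (-1.303), *Tns3* (-0.13) and *Gpr17* (-0.20), and for OPC-marker against myelin-rich spots in *Itpr2* (0.89), *Fyn* (1.34) and *Tns3* (0.25), as the construction of that scale gives. In the latter contrast *Gpr17* also turned with the top 5% of spots (-0.18) and with *Pdgfra* alone (-0.41), and *Fyn* with total-UMI scaling (0.00595) and without section 3 (0.0364, with -0.206 the lowest value without 1 section), none of them called, and the cause was not tested.

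Genes called higher and lower in OPC-marker spots (44 and 32) became 151 and 223 when the top 20% of spots were taken, 28 and 0 with *Pdgfra* alone (248 lower at an unadjusted edgeR p under 0.05), 67 and 74 without choroid plexus-marker spots, 147 and 198 with at least 5000 UMIs, 149 and 106 with the spots of both sets, 17 and 10 with matched spots and 125 and 228 with no filter. Scaling to spots gave 16 higher. With no replicate block, 10 and 0 were called (193 lower at an unadjusted edgeR p under 0.05), and the members' counts were 1, 5 and 3 as with the block. Leaving out a section gave 9 to 41 and 3 to 47, with the lowest values without section 3. In myelin-rich spots (1967 and 1684) the counts were 1280 and 1010 with at least 5000 UMIs, 202 and 10793 with scaling to spots and 1368 to 1880 and 986 to 1603 without a section. Between both groups (1085 and 1391) they were 421 and 791 with at least 5000 UMIs, 10642 and 168 with scaling to spots, and 407 to 1103 and 869 to 1400 without a section. There the higher count was also 719 with the top 20% of spots, 1635 with total-UMI scaling and 602 without the block. The cause of these moves was not tested.

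The median co-detection ratio (log2) was 0.0279 within myelin deciles, 0.0363 with at least 5000 UMIs and 0.0204 without myelin-rich spots, against -0.0108, so that its sign is not settled. Without 1 section it was -0.021 to 0.000141. The members' median myelin position and summed level moved by less than the SD between sections under every alternative run (47.7 to 49.9 and 196 to 212 CPM without 1 section). *Enpp6*, *Itpr2* and *Bmp4* rest on few UMIs in OPC-marker or myelin-rich spots, which limits their intervals.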

Other observations

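In the spots of both sets, which entered no test, *Fyn* stood at 78.2, 47.7, 123 and 75.8 CPM in sections 1 to 4, from 18, 10, 16 and 9 UMIs, and *Itpr2* at 21.7, 9.55, 23.1 and 16.9 CPM, from 5, 2, 3 and 2 UMIs. Section 2 was the lowest for both genes. Section 3, the highest for both, held 36 such spots.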
